A study of Mus musculus with 1 sample.

Results

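Among the cells of the newborn mouse cortex, 175 cell barcodes held transcripts of the oligodendrocyte lineage factors Olig1 or Olig2 but no transcript of Pdgfra, the receptor that marks oligodendrocyte precursor cells (OPCs). They were chosen by counts of unique molecular identifiers (UMIs, tags that let copies made by PCR be counted once). A member had at least 1000 detected genes, at least 2 UMIs of Olig1 and Olig2 together, 0 of Pdgfra, at most 1 of Gad1 and Gad2 together and at most 1 of Neurod2 and Neurod6 together. Gad1 and Gad2 encode enzymes of inhibitory neurons, and Neurod2 and Neurod6 encode factors of excitatory neurons. The 175 members were 1.94% (95% interval 1.67 to 2.25) of the 9018 barcodes with at least 1000 genes, out of 11062 barcodes in all.

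The data came from sc-RNA Seq of wild-type (WT) C57BL/6 mice on the day of birth (P0), with the cerebral cortex as the labelled tissue. The tissue was digested with papain, and single cells were captured with the 10x Chromium 3′ method. The sample title calls the tissue telencephalic, whereas its source and tissue labels name the cortex, so the regional origin of single cells cannot be read from the labels. The design of the series also names mice with SERPINA3 f/+;Nestin-Cre and triplicates, which were not analysed here. All values below come from 1 WT library with no replicate, and the number of animals behind it is not given in the sources used here. No test between groups was therefore made, and bracketed 95% intervals cover counting error only.

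Olig1 and Olig2 are basic helix-loop-helix transcription factors. Olig2 directs progenitors towards the oligodendrocyte lineage and is also present in some progenitors of astrocytes and interneurons, while PDGFRA, Sox10 and Cspg4 (the NG2 proteoglycan) come on as OPCs are specified. Around birth, radial glia of the forebrain turn from making neurons to making glia, partly through dividing intermediate progenitors, and the EGF receptor is known as a mark of such gliogenic progenitors. Astrocyte genes such as Aldoc begin to be expressed in the same period, and radial glia and immature astrocytes share many transcripts.

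The members were compared with 3 groups of barcodes that also had at least 1000 genes. The OPC group of 161 barcodes had at least 2 UMIs of Pdgfra and at least 1 of Olig1 or Olig2. The radial glia and astrocyte group of 215 barcodes had at least 3 UMIs of Aldoc and Slc1a3 together, none of Olig1, Olig2 or Pdgfra, and met the same neuronal limits as the members. All 8682 barcodes other than the members and the OPC group formed the third comparison, and 7225 of them, with at least 2 UMIs of Neurod2 and Neurod6 and none of Olig1, Olig2 or Pdgfra, served as neurons that should lack glial transcripts. Where a group was defined by a gene, its level of that gene only restates the choice. This holds for Olig1, Olig2, Pdgfra and the neuronal limit genes. It holds for Aldoc and Slc1a3 in the radial glia and astrocyte group alone, as neither was used to choose the members or the OPC group.

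By choice, every member held Olig UMIs. The sum of Olig1 and Olig2 ranged from 2 to 44 per member with a median of 5, against a median of 16 in the OPC group. Olig1 was seen in 154 members and Olig2 in 146, and 125 members held both.

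The limits cut through a continuous range of counts. Of the 394 barcodes with at least 2 Olig UMIs, 155 had 2 or more Pdgfra UMIs, 22 had exactly 1, and 42 had none but were over a neuronal limit. Just inside the Olig limit, 33 members had exactly 2 UMIs. Just outside it, 64 barcodes had 1 Olig UMI and met all other limits. Summed UMIs were expressed as CPM, the number in every 1000000 UMIs outside the mitochondrial genes. On this scale Egfr was at 206 CPM in the 33 barcodes just inside and at 134 CPM in the 64 just outside, and Aldoc was at 1079.6 CPM and 1168 CPM. The 13 barcodes left out for a single Pdgfra UMI held 271 CPM of Egfr, 115 CPM of Sox10 and no Aldoc UMI.

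Members and OPCs were sequenced to a like depth. Members held a median of 8429 UMIs (1537 to 20631) and 3453 genes, and the OPC group held a median of 7848 UMIs (1584 to 46108) and 3357 genes. The radial glia and astrocyte group had a median of 7504 UMIs and the neurons one of 9079. Mitochondrial genes took a median of 2.17% of a member's UMIs and 2.82% of an OPC's. The doublet score Scrublet marked 2 of the 175 members (1.14%) and 26 of the 161 OPC barcodes (16.1%), against 792 of the 9018 barcodes with at least 1000 genes (8.78%). Barcodes were marked for a score above that of the barcode at the top 8% of all 11062. The OPC rule set no neuronal limit, and 52 of its barcodes were over one. Where a gene of the lists named below as called against the OPC group fell within 2-fold against the 109 remaining OPC barcodes, this is stated beside it.

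**Figure D1:**
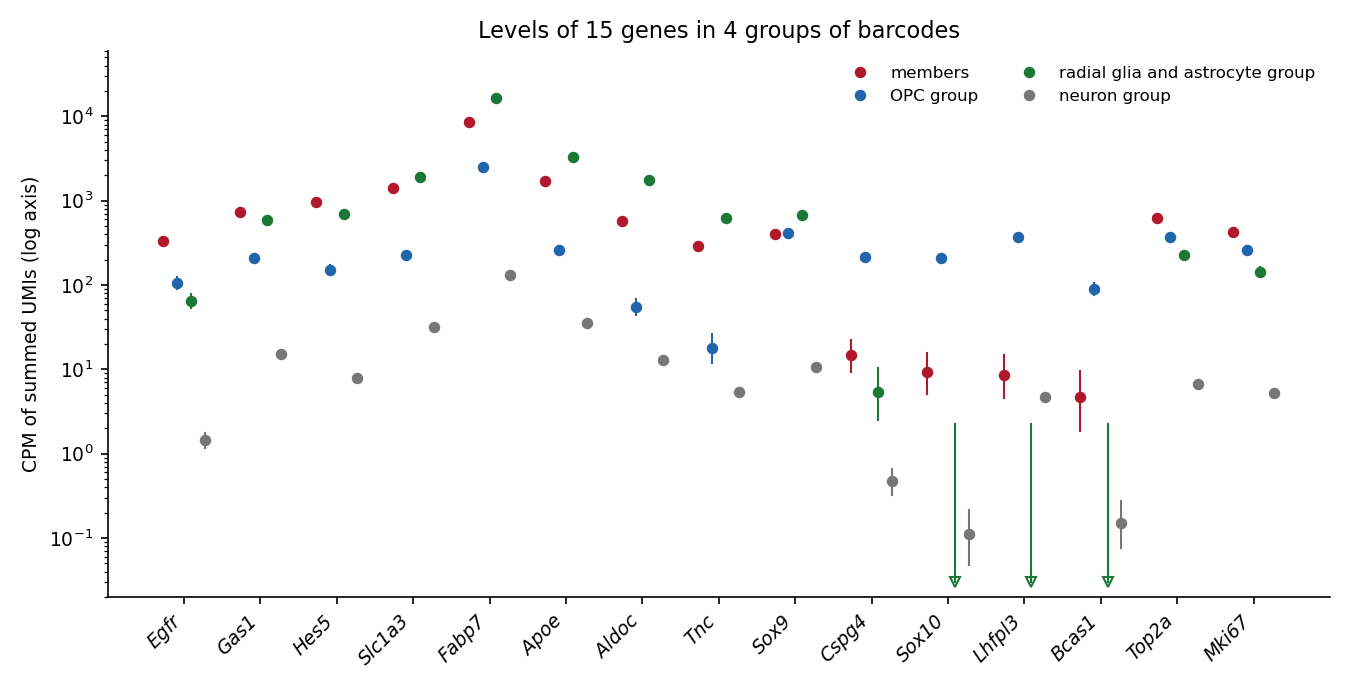
CPM of 15 genes in 4 groups of barcodes on a log axis, with exact 95% intervals for counting error; arrows mark groups with 0 UMIs and point down from the upper limit. Egfr was highest in the members at 337 CPM, and Sox10 and Lhfpl3 were lower in members than in the OPC group. Slc1a3, Aldoc and Tnc lay between the OPC group and the radial glia and astrocyte group, which was chosen for Slc1a3 and Aldoc.

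To ask whether the members carried genes of dividing, multipotent intermediate progenitors, a list of 12 such genes was examined. Egfr, the receptor for EGF and TGF-alpha, had 506 UMIs in 142 of the 175 members (81.1%, 74.5 to 86.6), with a median of 2 and a highest value of 11 UMIs per cell. This was 337 CPM in members, 105 CPM in the OPC group, 65.0 CPM in the radial glia and astrocyte group and 1.45 CPM in neurons. The ratio of members to the OPC group was 3.20 (2.67 to 3.85), or 5.26 (3.97 to 7.06) with barcodes holding Mki67 or Top2a left out of both groups, and the ratio to radial glia and astrocytes was 5.19 (4.21 to 6.45). The latter group was chosen to hold no Olig UMI, and Egfr was lower in barcodes with fewer Olig UMIs, as given below. The part of that choice in the ratio was not tested. Within the members no cell held more than 2.17% of the Egfr UMIs, so the level did not rest on a few barcodes.

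The share of barcodes with an Egfr UMI was also compared at equal depth, after each barcode had been thinned at random to 2000 UMIs. Shallower barcodes were left out, 1 among the members and 3 in the OPC group. Egfr then remained in 44.3% of members (36.7 to 52.0), 10.1% of the OPC group (5.90 to 15.9), 10.0% of radial glia and astrocytes and 0.213% of neurons. The share in members lay above the background share in neurons at both depths, as the unthinned share in neurons was 1.15%.

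For comparisons across genes, a gene was examined where at least 5% of the members or of the comparison group held a UMI, and was called where the CPM ratio, with 10 CPM added on both sides, passed 2-fold. Of 11701 genes examined against the OPC group, 439 (3.75%) were called higher in members and 660 (5.64%) lower, and the median log2 ratio was -0.01. Against the 109 OPC barcodes within the neuronal limits, 530 of 11455 genes (4.63%) were called higher and 549 (4.79%) lower. In the progenitor list 4 of 12 genes were called higher and 2 lower, with a median log2 ratio of 0.37. Besides Egfr, the genes called higher were Gas1, a Hedgehog co-receptor (734 against 209 CPM), Btg2, an antiproliferative gene (415 against 123 CPM), and Fgfbp3, an FGF binding protein (299 against 35.4 CPM). Gas1 was not particular to the members, with a UMI in 88.0% of them and in 90.2% of radial glia and astrocytes. Btg2 is also counted among the stress and dissociation genes below. The Notch ligand genes Dll1 and Dll3 were called lower, at 24.0 against 65.4 CPM and 41.3 against 111 CPM. Both calls were narrow, as the log2 ratio was -0.83 for Dll1 without barcodes holding Mki67 or Top2a and -0.98 for Dll3 with at least 4 Olig UMIs. Both Notch ligands of the list thus lay below the OPC group, whereas Egfr and Gas1 lay above it.

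Genes of the radial glia list were compared next, with their share in neurons as background. Slc1a3, the glutamate transporter GLAST, was found in 161 members (92.0%) with a median of 10 and a highest value of 47 UMIs, in 64.6% of OPCs and in 13.5% of neurons. Fabp7, a brain lipid binding protein of radial glia, was found in 171 members with a median of 45 UMIs and a range of 0 to 291, in 94.4% of OPCs and in 23.0% of neurons. Sox2, a factor of neural stem and progenitor cells, was found in 167 members (95.4%), 85.7% of OPCs and 5.45% of neurons. Of the 22 genes in the radial glia list, 17 were called higher than in the OPC group and 0 lower, with a median log2 ratio of 1.58. Against OPC barcodes within the neuronal limits 16 were called higher and 0 lower.

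Levels in members lay between those of the OPC group and of the radial glia and astrocyte group for 16 of the 22 genes, were above both for 5 and below both for 1, before any allowance for counting error. The radial glia and astrocyte group was chosen for Slc1a3 and Aldoc, so its level of Slc1a3 restates that choice. Slc1a3 was at 1402 CPM in members, 228 CPM in the OPC group and 1930 CPM in radial glia and astrocytes, with a ratio to the OPC group of 6.16 (5.49 to 6.93). The extracellular matrix gene Tnc was at 291, 18.0 and 620 CPM, and Mt3, a metallothionein, was at 1269.7 CPM, 105 CPM and 3465 CPM in the same order. The intermediate filament gene Nes was at 290 CPM in members, 126 CPM in OPCs and 274 CPM in radial glia and astrocytes, and its call over OPCs ended within the neuronal limits (log2 ratio 0.92). Sox9, a glial fate factor, was at 398 CPM in members and 417 CPM in OPCs, and the ratio of 0.954 had an interval that spans 1 (0.851 to 1.07).

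Astrocyte genes were also carried, but unevenly. Of 20 genes in the astrocyte list, 15 were called higher than in the OPC group and 0 lower, with a median log2 ratio of 2.31. Aldoc, a glycolytic enzyme enriched in astrocytes, was found in 102 members (58.3%) with 0 to 45 UMIs, and was at 569 CPM in members, 55.4 CPM in OPCs and 1769 CPM in the group chosen for it. The folate enzyme gene Aldh1l1 was at 153 against 8.68 CPM in OPCs, a ratio of 17.6 (10.1 to 33.5). The lipid carrier gene Apoe was at 1691 against 260 CPM, a ratio of 6.50 (5.84 to 7.25).

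Genes of more mature astrocytes were low or moderate. Aqp4, the water channel, had 96 UMIs in members (64.0 CPM) and 2 in the OPC group, a ratio of 47.9 (12.9 to 401). Gfap was at 12.7 CPM and S100b at 2.0 CPM in members, and neither was called against the whole OPC group. Within the neuronal limits, where OPCs held 0 Gfap UMIs, Gfap was called higher (log2 ratio 1.18 with 10 CPM added) and S100b lower (-1.38). At least 2 of the 6 genes Aldoc, Aqp4, Aldh1l1, Gja1, Slc1a2 and Mlc1 were found together in 136 members (77.7%), in 26 OPC barcodes (16.1%) and in 202 of the 215 radial glia and astrocytes (94.0%). Aldoc, Aqp4, Aldh1l1, Gja1 and Mlc1 were each already higher in members than in OPCs, so that contrast restates the choice of genes. Gfap and S100b were outside the set, and Aldoc was also used to choose the radial glia and astrocyte group. Of the markers named for these progenitors, Olig1 and Olig2 were used to choose the members and so check nothing. Egfr was found in most members, as were genes of radial glia and astrocytes. As the members and gene lists were chosen with earlier results of these data known, this is not an independent check either.

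**Figure D2:**
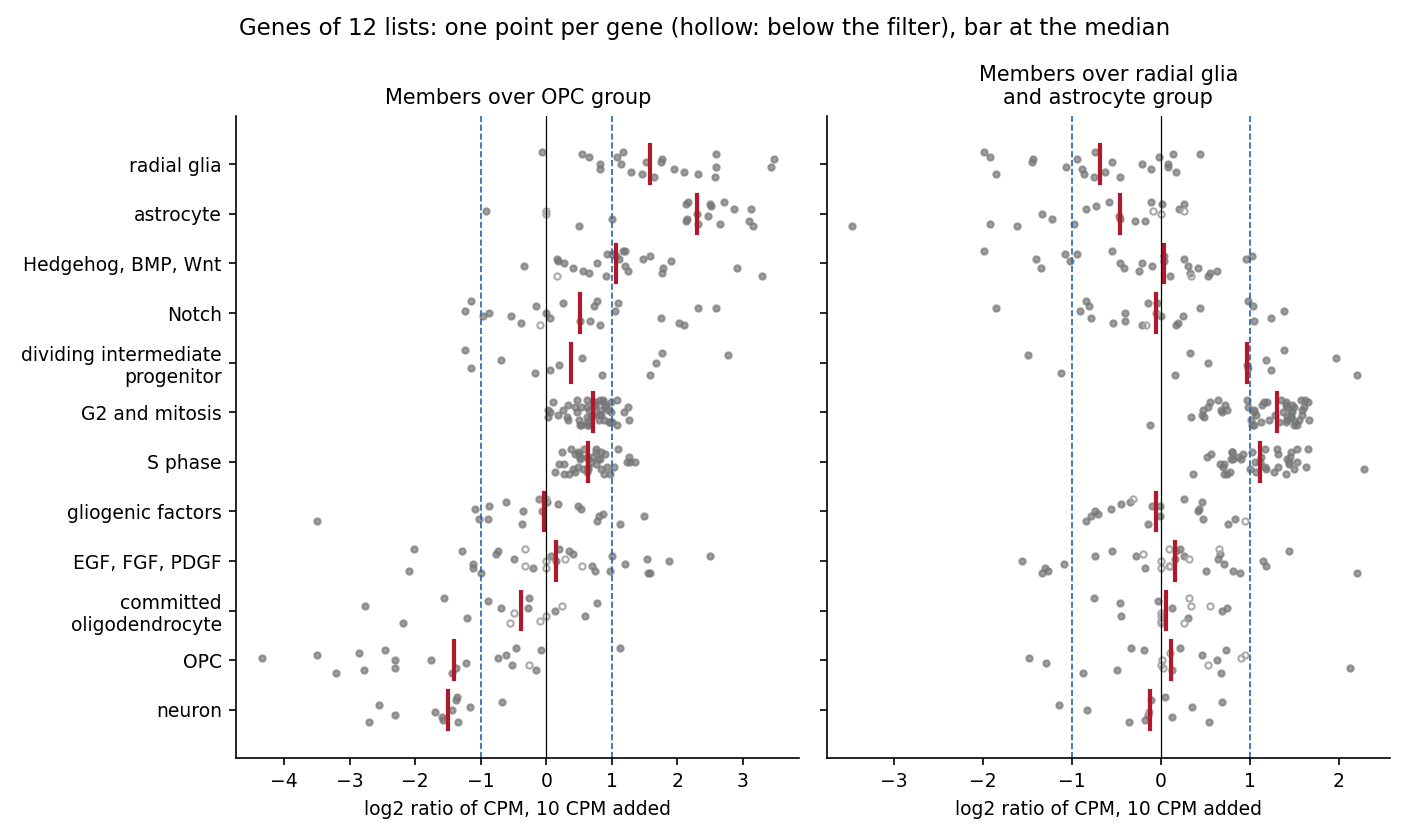
Each point is 1 gene of 12 lists, placed at the log2 ratio of CPM (10 CPM added) of members over the OPC group (left) and over the radial glia and astrocyte group (right). Bars mark list medians, dashed lines mark 2-fold, and hollow points lie below the 5% filter; against the OPC group the radial glia median was 1.58 and the OPC median was -1.41.

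OPC genes outside the rule were low in the members. Members were chosen for 0 Pdgfra UMIs and the OPC group for at least 2, which favours genes found with Pdgfra in the OPC group. The part of this choice in the values below was not tested. Of 20 genes in the OPC list, 12 were called lower than in the OPC group and 1 higher, with a median log2 ratio of -1.41. Sox10, a lineage factor of OPCs and oligodendrocytes, had 14 UMIs in 6 members (9.33 CPM) and 312 UMIs in 112 OPC barcodes (208 CPM). The ratio was 0.0448 (0.0242 to 0.0763), and became 0.0196 in members with no UMI of the neuronal limit genes and 0.0758 without barcodes holding Mki67 or Top2a. Lhfpl3, a membrane protein gene enriched in OPCs, was at 8.66 against 367 CPM, and 61.5% of its 13 UMIs in members came from 1 barcode. Cspg4 was at 14.7 against 217 CPM, and C1ql1 and Matn4, both genes of secreted proteins, were at 14.7 against 126 CPM and 2.0 against 49.4 CPM.

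Some genes often used for OPCs did not follow this order. Ptprz1, a receptor phosphatase shared by radial glia and OPCs, was at 4042 CPM in members, 1853 CPM in OPCs and 5101 CPM in radial glia and astrocytes, and was the 1 gene of the list called higher. Its log2 ratio fell from 1.12 to 0.88 within the neuronal limits and to 0.91 without doublets, which ended the call. The proteoglycan gene Bcan was at 345 CPM in members and 363 CPM in OPCs, and the endothelin receptor gene Ednrb was at 270 CPM and 300 CPM. Neither was called. Serpine2, a secreted protease inhibitor, was lower than in OPCs at 147 against 401 CPM but higher than the 25.9 CPM of radial glia and astrocytes.

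A set of 6 genes of OPCs and committed precursors, all lower in members, was also read cell by cell. Because each gene was already lower in members, the contrast with OPCs restates the choice of genes. The OPC genes Ptprz1, Bcan and Ednrb, which were not lower or not called, were outside the set. At least 2 of the 6 genes Sox10, Cspg4, Lhfpl3, C1ql1, Bcas1 and Gpr17 were found in 5 of 175 members (2.86%) and in 121 of 161 OPC barcodes (75.2%), and 140 members (80.0%) held none of them. The background was 0 of 215 radial glia and astrocytes, which with 3 counts taken for a count of 0 allows a share of up to 1.40%, and 5 of 7225 neurons. Of the 5 members with at least 2 genes of this set, 1 also held at least 2 of the astrocyte set. These are too few to tell whether the sets go apart. All 20 genes of the OPC list summed to 5193 CPM in members and 5065 CPM in OPCs, of which Ptprz1 gave 4042 CPM and 1853 CPM.

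The loss of Pdgfra with depth was measured in the OPC group, which was itself chosen for at least 2 Pdgfra UMIs, so that barcodes with fewer are not counted and the loss is understated. After thinning to 2000 UMIs, 22.8% (16.5 to 30.1) of the OPC barcodes had no Pdgfra UMI, or 15.1% of those within the neuronal limits. At this same depth Sox10 remained in 1.72% (0.357 to 4.96) of members and 34.8% of the OPC group, and Lhfpl3 in 1.15% of members and 44.9% of OPCs. Pdgfra loss was measured at a depth below the members' median of 8429 UMIs, and loss was greater at lower depth. The share therefore gives no bound on the loss among members.

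**Figure D3:**
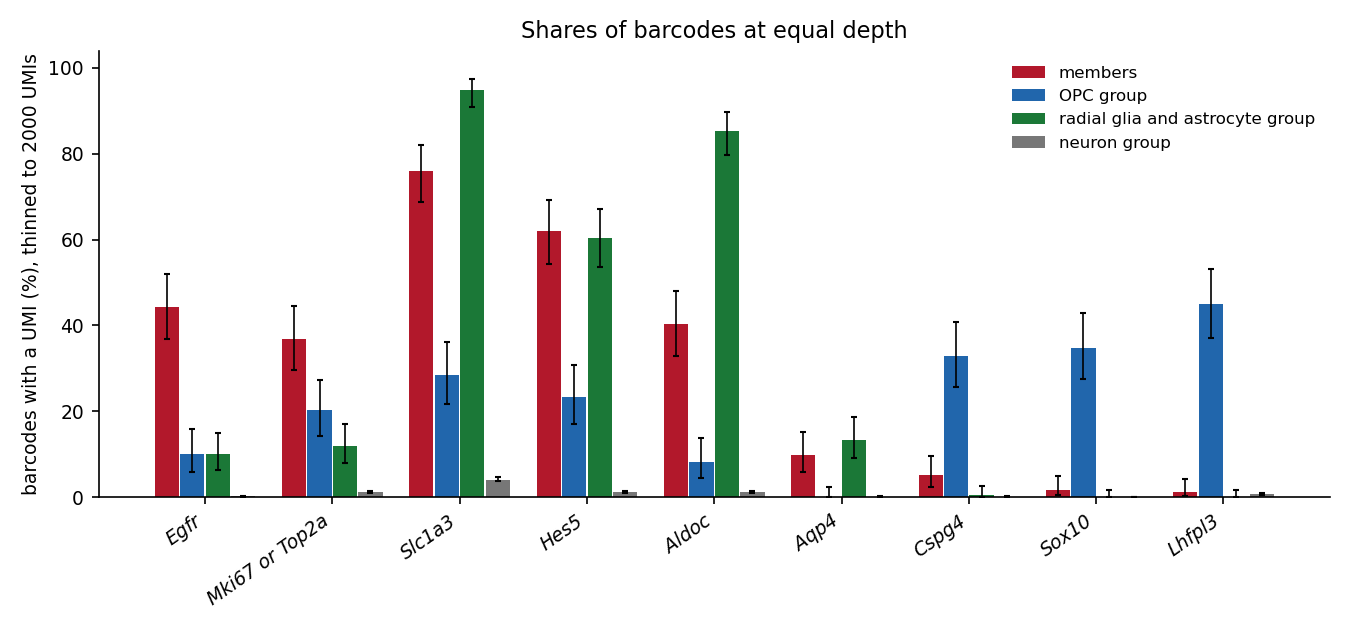
Share of barcodes with a UMI of each gene after thinning to 2000 UMIs, with exact 95% intervals, in members, the OPC group, radial glia and astrocytes, and neurons. Egfr was found in 44.3% of members and 10.1% of OPCs, and Sox10 in 1.72% of members and 34.8% of OPCs.

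Genes of later stages of the oligodendrocyte lineage were either lower in members or not called. In the list of 16 committed oligodendrocyte genes, 4 were called lower than in the OPC group and 0 higher, with a median log2 ratio of -0.38. Bcas1 was at 4.67 against 90.1 CPM and Gpr17, a receptor of committed precursors, at 2.0 against 44.7 CPM, and the 3 Gpr17 UMIs of members came from 1 barcode. Among 9 myelin genes 0 were called in either direction, and 2 passed the 5% filter.

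Ranked by the CPM ratio to the OPC group with 10 CPM added, the 15 highest genes included Mt3, Tnc, Aldoc, Aldh1l1, Sparcl1 and the bicarbonate cotransporter gene Slc4a4, together with Id1 and Id3, inhibitors of helix-loop-helix factors that respond to BMP. The enzyme genes Tst and Cbs, the GABA transporter gene Slc6a11 and Lxn, Ccdc80, Itgb5 and Tnfrsf19 completed the set. The 15 lowest included Lhfpl3, Sox10, Cspg4, Tnr, Pcdh15 and Bcas1, besides Cntn1, Nav3, Dscam, Sulf2, Myt1, Mmp15, Rasl11a and Ostf1. The remaining gene, Tubb3, encodes a neuronal tubulin and is taken up with the neuronal genes.

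Fewer genes were called between the members and the radial glia and astrocyte group. Of 11308 genes examined, 269 (2.38%) were called higher in members and 354 (3.13%) lower, with a median log2 ratio of -0.02. In the radial glia list 6 of 22 genes were called lower and 0 higher (median -0.68), and in the astrocyte list 5 of 20 were called lower and 0 higher (median -0.46). Those lower included Hopx, a marker of outer radial glia (49.3 against 216 CPM), the Notch receptor gene Notch2 (82.6 against 324 CPM), Pax6, a factor of cortical progenitors (155 against 441 CPM) and the secreted chaperone gene Clu (26.7 against 396 CPM). In contrast, Hes5 was at 963 CPM in members and 705 CPM in radial glia and astrocytes, a ratio of 1.37 (1.26 to 1.48). The radial glia and astrocyte group was chosen for Aldoc and Slc1a3, which favours genes of both lists in it. Its radial glia and astrocyte lists summed to 48267 and 17883 CPM. The sums were 40895 and 14788.5 CPM in members with at least 2 Aldoc UMIs, and 13668 and 2353 CPM in members without Aldoc.

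Division genes were higher in members than in radial glia and astrocytes. Against that group, 25 of 41 S phase genes and 38 of 52 genes of G2 and mitosis were called higher and 0 lower, with median log2 ratios of 1.12 and 1.31. Mki67, a protein of cycling cells, was at 422 CPM in members, 264 CPM in OPCs and 143 CPM in radial glia and astrocytes. Top2a, a topoisomerase of dividing cells, was at 623, 374 and 228 CPM in the same order. The radial glia and astrocyte group was chosen for Aldoc and Slc1a3, and members with Aldoc divided less often. At least 2 UMIs of Mki67 and Top2a together were found in 25 of its 215 barcodes (11.6%, 7.67 to 16.7). The share was 21.8% (13.7 to 32.0) in the 87 members with at least 2 Aldoc UMIs. The part of this choice in the ratios was not tested.

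Against the OPC group the ratios of these lists were smaller. There 6 of 41 S phase genes and 5 of 52 genes of G2 and mitosis were called higher and 0 lower, and the medians were 0.64 and 0.72. The ratio for Mki67 was 1.60 (1.41 to 1.82). With the OPC group kept within the neuronal limits the counts became 11 and 19, where 4.63% of all genes examined were higher. With 1 Pdgfra UMI enough for the OPC group they were 1 and 6, where 402 of 11751 genes were higher. Over all 12 alternatives the S phase count ranged from 1 to 12 and the other from 2 to 19. The count of 2 came from leaving out barcodes with Mki67 or Top2a, where 23 of the 52 genes passed the filter and the S phase count was 11. At 2000 UMIs, Mki67 or Top2a was found in 36.8% of members (29.6 to 44.4), 20.3% of OPCs (14.3 to 27.4), 11.9% of radial glia and astrocytes and 1.12% of neurons. The unthinned share was 48.6% of members, so 90 of the 175 members held no UMI of either gene.

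Signalling genes were examined by role, beginning with the Notch pathway, in which a ligand on one cell activates receptors on its neighbour and the receptors induce Hes genes. Of 23 genes, 7 were called higher than in the OPC group and 2 lower, with a median log2 ratio of 0.52. Receptors were higher or between the limits, with Notch1 at 344 against 190 CPM, Notch2 at 82.6 against 8.68 CPM and Notch3 at 34.7 against 3.34 CPM. The glycosyltransferase gene Lfng, which modifies the receptors, was called higher at 128 against 24.0 CPM.

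Of the target genes, Hes1, Hes5 and Hey2 were called higher and Hey1 and Heyl were not called. Hes5, a repressor of neuronal genes, was found in 145 members (82.9%) and was at 963 against 151 CPM, a ratio of 6.39 (5.55 to 7.38). Hes1 was at 205 against 40.0 CPM. Hey2 was at 10.7 CPM in members with 0 UMIs in the OPC group, and was at least 5.33-fold higher when 3 UMIs were taken for the whole OPC group. The ligands were divided, since Jag1 was called higher at 31.3 against 9.34 CPM whereas Dll1 and Dll3 were called lower. The Jag1 call ended within the neuronal limits (log2 ratio 0.80) and without doublets (0.91), and the Hey2 call with at least 4 Olig UMIs (0.74). The Notch list was not particular to the members. It summed to 2459 CPM in members and 2454 CPM in radial glia and astrocytes. Against that group 4 of its 23 genes were called higher and 1 lower, with a median log2 ratio of -0.06.

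For EGF, FGF and PDGF signalling, 6 of 31 genes were called higher than in OPCs and 6 lower, with a median log2 ratio of 0.14. The receptors called higher were Egfr, Fgfr1 (122 against 47.4 CPM), Fgfr2 (29.3 against 3.34 CPM), Fgfr3 (137 against 16 CPM) and Pdgfrb (34.0 against 2.0 CPM). Lrig1, which dampens EGF receptor signalling, was the sixth at 34.7 against 5.34 CPM. Among those lower, Erbb4 encodes a neuregulin receptor (6.67 against 57.4 CPM), Spry1, Spry4 and Dusp6 encode feedback inhibitors of the pathway, and Tgfa encodes an EGF receptor ligand (17.3 against 49.4 CPM). Cdkn1c, an inhibitor of the cell cycle, was also lower at 36.7 against 103 CPM. Within the neuronal limits the calls of Fgfr1 (log2 ratio 0.95) and Dusp6 (-0.94) ended. The calls of Cdkn1c (-0.66 without barcodes holding Mki67 or Top2a), Spry4 (-0.94 with at least 4 Olig UMIs) and Tgfa (-0.92 with no neuronal UMI in members) ended under other settings. The feedback genes Spry2 and Spred1 were not called, at 159 against 117 CPM and 152 against 143 CPM.

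The Hedgehog, BMP and Wnt list stood further from the OPC group. Of 25 genes, 13 were called higher and 0 lower, with a median log2 ratio of 1.06. Gli1 and Ptch1, targets of Hedgehog signalling, were at 33.3 against 2.67 CPM and 181 against 78.8 CPM. The Ptch1 call ended within the neuronal limits (log2 ratio 0.85) and without doublets (0.89), and 11 genes of the list were then higher within those limits. Id1 was at 481 against 40.0 CPM, a ratio of 12 (9.23 to 15.9), and Id3 was at 599 against 70.7 CPM. Axin2, a Wnt target, was at 99.98 CPM in members, 26.7 CPM in OPCs and 43.9 CPM in radial glia and astrocytes, and was the 1 gene of this list called higher than in the latter group, where 5 were lower.

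Transcription factors of gliogenesis showed no common direction. Of 20 genes, 2 were called higher than in OPCs and 3 lower, with a median log2 ratio of -0.03. Nfia, which promotes gliogenesis, was at 973 against 441 CPM and Klf15 at 48.0 against 10.7 CPM. Sox4 and Sox11, factors of immature neurons and precursors, were called lower at 1038 against 2207 CPM and 668 against 1366 CPM, as was Sox10. Within the neuronal limits OPCs held 1696 CPM of Sox4 and 744 CPM of Sox11, and neither was called (log2 ratios -0.70 and -0.15). Nfia was at 504 CPM in those OPCs and was not called either (0.94). None of the 20 was called against radial glia and astrocytes.

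The members were not alike. They were first divided by the Olig counts that chose them, into 64 with 2 to 3 UMIs, 56 with 4 to 7 and 55 with at least 8, whose median depths were 7484.5, 9743.5 and 8602 UMIs. Egfr was at 219 CPM (178 to 266), 330 CPM (284 to 383) and 454 CPM (397 to 517). Aldoc was at 974, 537 and 230 CPM, and Apoe at 2655, 1519 and 986 CPM. Along this order Egfr was higher and the astrocyte genes lower.

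Comparing the highest with the lowest Olig class, the ratio was 2.08 (1.64 to 2.65) for Egfr, 0.236 (0.191 to 0.290) for Aldoc and 0.0566 (0.0113 to 0.175) for Hopx. The summed level of Mki67 did not differ beyond counting error, with a ratio of 1.01 (0.822 to 1.24). At least 2 UMIs of Mki67 and Top2a together were held by 19 of the 64 members with 2 to 3 Olig UMIs. The numbers were 25 of the 56 with 4 to 7 and 24 of the 55 with at least 8, and these classes were also deeper. All 14 Sox10 UMIs lay in members with at least 8 Olig UMIs, at 28.0 CPM, but only a few barcodes of that class held them.

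**Figure D4:**
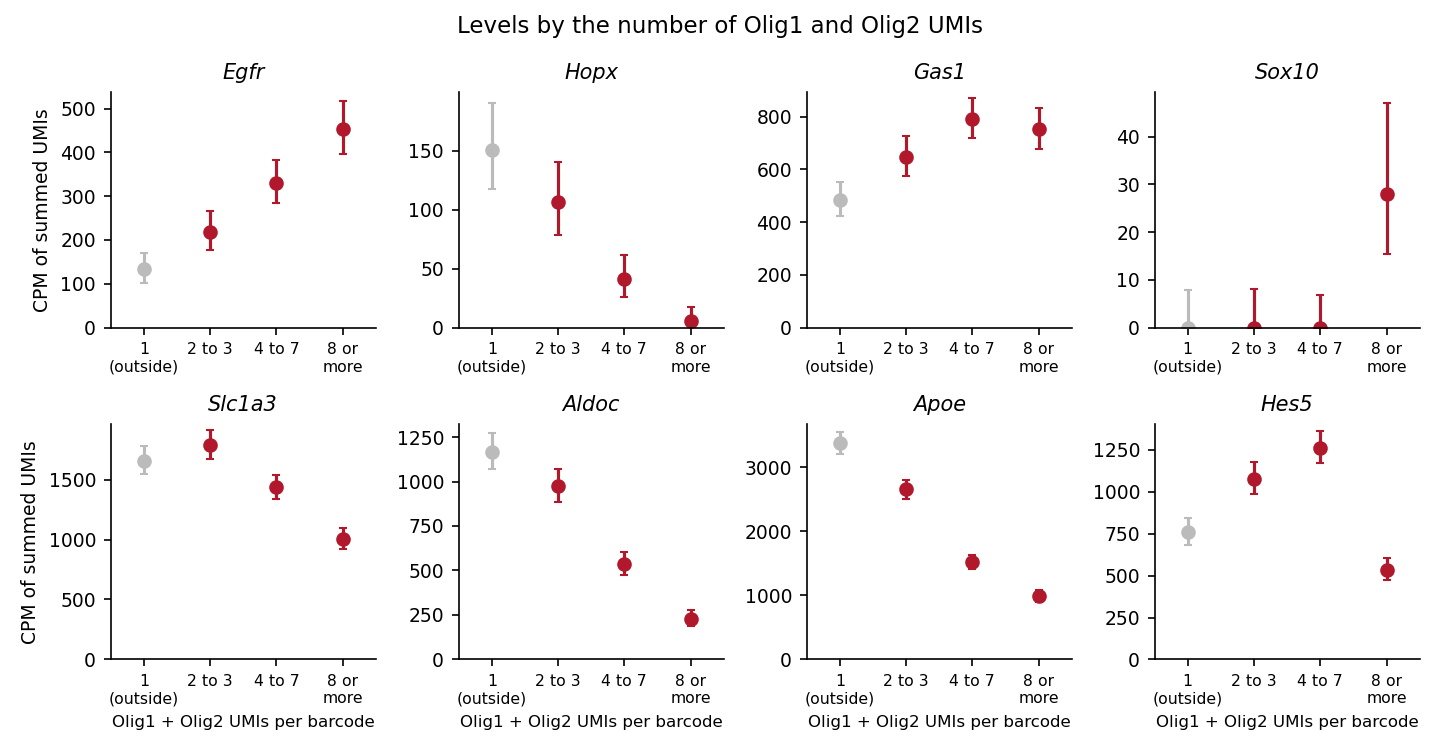
CPM of single genes in barcodes grouped by their summed Olig1 and Olig2 UMIs, from the 64 barcodes with 1 UMI outside the limit to the 55 members with at least 8, with exact 95% intervals. Egfr was at 134, 219, 330 and 454 CPM in this order and Aldoc at 1168, 974, 537 and 230 CPM.

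A second division followed Aldoc, which the choice did not use. The 73 members without Aldoc and the 87 with at least 2 UMIs had like depths, with medians of 8374 and 8481 UMIs, and 15 members held 1 UMI. Dll3 was at 92.4 CPM in members without Aldoc and 3.94 CPM in those with it, a ratio of 23.5 (7.64 to 117), and Dll1 was at 47.0 against 7.87 CPM. Egfr differed less, at 410 against 273 CPM with a ratio of 1.5 (1.25 to 1.81), and Gas1 was at 790 and 707 CPM with a ratio of 1.12 (0.986 to 1.26).

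Several genes of radial glia and astrocytes were above in members with Aldoc. Fabp7 was at 3343 CPM in members without Aldoc and 13356 CPM in those with it, and Slc1a3 was at 626 and 2093 CPM. Tnc was at 85.9 against 483 CPM. All 20 genes of the astrocyte list together took a median of 1823 CPM per cell in members without Aldoc and 14681 CPM in those with at least 2 UMIs, a sum that includes Aldoc itself. Genes outside these lists differed as well, since the immediate early gene Fos was at 98.9 CPM in members without Aldoc and 1264 CPM in those with it, and Egr1 was at 785 and 1246 CPM.

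Division was also compared along this split. With dividing members set as those with at least 2 UMIs of Mki67 and Top2a together, 68 of 175 were dividing, 17 held 1 UMI and 90 held none. Dividing members made up 39 of the 73 without Aldoc (53.4%, 41.4 to 65.2) and 19 of the 87 with at least 2 Aldoc UMIs (21.8%, 13.7 to 32.0). Among the 15 with a single Aldoc UMI 10 were dividing (66.7%, 38.4 to 88.2), so the share did not fall steadily with Aldoc. Dividing members had a median of 10578 UMIs and those with none had 7310.5, so that the classes differed in depth.

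Egfr did not differ beyond counting error between the 68 dividing members and the 90 with no UMI of either gene, at 321 and 368 CPM with a ratio of 0.873 (0.725 to 1.05). In contrast, Aldoc was lower in dividing members, at 182 against 1050 CPM with a ratio of 0.173 (0.143 to 0.209).

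**Figure D5:**
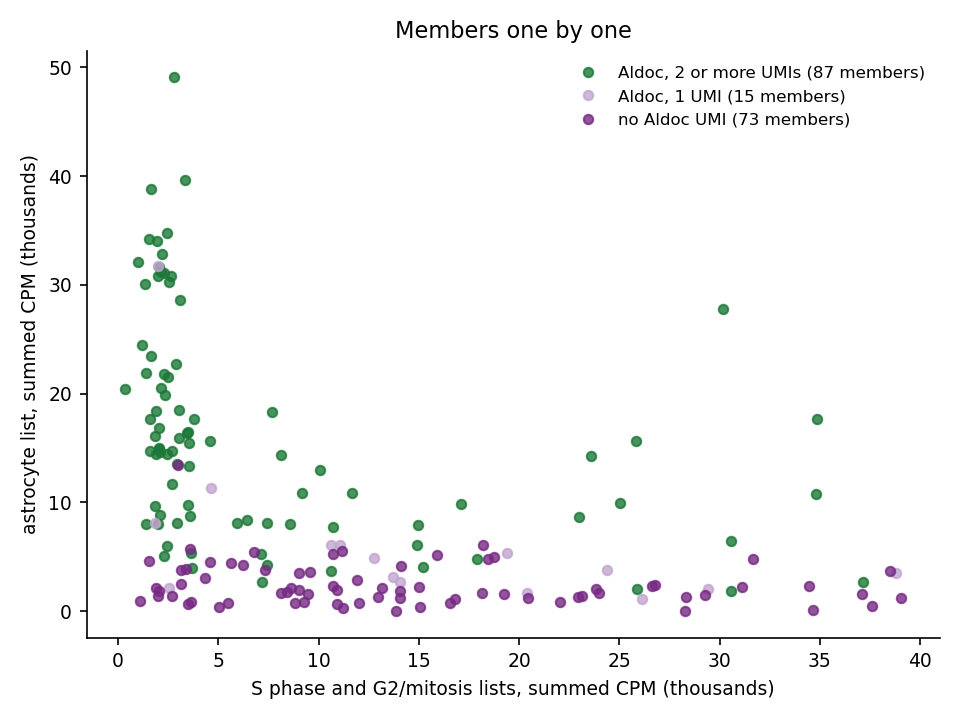
Each point is 1 of the 175 members, placed by its summed CPM of the S phase and G2 and mitosis genes (horizontal, in units of 1000 CPM) and of the 20 astrocyte genes, which include Aldoc (vertical, in units of 1000 CPM), and coloured by Aldoc UMIs. Members without Aldoc had a median of 11922 CPM on the division axis and those with at least 2 UMIs had 3043 CPM, and the classes overlap on both axes.

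Neuronal transcripts were low in members, as the limits on Neurod and Gad genes favour. Of 12 pan-neuronal genes, 11 were called lower than in the OPC group and 0 higher, with a median log2 ratio of -1.5, and of 12 excitatory neuron genes 7 were lower and 1 higher. Against the 109 OPC barcodes within the neuronal limits these counts fell to 4 lower among the pan-neuronal genes and to 1 lower among the excitatory genes, where 4.79% of all genes examined were lower. Tubb3 was at 92.6 CPM in members, 656 CPM in all OPC barcodes and 167 CPM in those within the limits, against which it was not called (log2 ratio -0.78). The part of doublets and free RNA in these values was not tested. With the OPC group within the limits Egfr had a ratio of 3.12, Slc1a3 of 5.93 and Sox10 of 0.0310.

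Of 16 genes of the inhibitory lineage, 4 were lower than in the OPC group and 0 higher, and 3 were lower within the neuronal limits. Against all other barcodes 4 were higher in members and 1 lower. At least 2 UMIs of Dlx1 and Dlx2, factors of ventral progenitors and interneurons, were found in 4 members (2.29%) and in 26 OPC barcodes (16.1%). Dlx1 was at 10.0 CPM in members, 115 CPM in all OPC barcodes and 58.5 CPM in those within the limits. Among 9 genes of excitatory intermediate progenitors 0 were called against the OPC group, where 3 passed the 5% filter. Against radial glia and astrocytes 2 were called lower and 0 higher, and against all other barcodes 2 were lower and 1 higher. Eomes was at 0.667 CPM in members.

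Markers of further cell types were also summed in members. Summed levels were 6.00 CPM over 12 microglia and blood genes, of which 7 had no UMI, and 10.0 CPM over 8 ependymal and choroid plexus genes, of which 6 had none. The 14 vascular genes summed to 70.6 CPM in members, 24.0 CPM in OPCs, 191 CPM in radial glia and astrocytes and 42.5 CPM in neurons. In members Pdgfrb gave 34.0 CPM of this and 6 genes had no UMI, among them the endothelial genes Kdr and Cdh5.

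Compared with all 8682 other barcodes, which were mostly neurons, 1394 of 11985 genes (11.6%) were called higher in members and 1372 (11.4%) lower, with a median log2 ratio of 0.05. All 22 radial glia genes and 46 of 52 genes of G2 and mitosis were called higher. Leading the genes higher in members were Hes5, Mfge8, a secreted glycoprotein of radial glia, and Egfr, which was at 337 against 7.47 CPM with a ratio of 45.2 (40.1 to 50.9). Metrn, a secreted factor of glial progenitors, and Sall3, a zinc finger factor, were also among the 15 highest. Of the 12 pan-neuronal genes 11 were called lower. The lowest ratios were those of Stmn2, a microtubule regulator of growing axons, and Mef2c, a factor of neurons, which was at 135 against 3634 CPM.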

How the data were processed

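One WT library was used. The authors deposited raw UMI counts per gene and barcode without normalization, and a table of UMI and gene totals per barcode. The submitters' processing notes name Cell Ranger, STAR, Seurat and the build mm9, and the rule for calling cells is not given in the sources used here. No coordinates are given. Barcodes with at least 1000 genes were grouped by UMIs of the genes named above. UMIs were summed per group and divided by totals without mitochondrial genes (CPM). Intervals were exact: Poisson for CPM, conditional binomial for ratios and Clopper-Pearson for shares, at 95%. Counting intervals take barcodes as 1 pool and leave out the spread between cells and animals. Scrublet (scanpy 1.11.5, 30 components) gave doublet scores. Its automatic threshold was unstable, so barcodes above the score at the top 8% were marked. Barcodes tied at that score were not, which left 847 of 11062, and none was removed. Python 3.11.15, numpy 2.4.6 and scipy 1.17.1 were used, and ratio calls were tested on simulated data. The simulation held counting error only and changes well past 2-fold in genes that were not low. Recovery of smaller changes, or of changes in low genes, was not tested.

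The members and gene lists were chosen with earlier results of these data known. Genes could be named if they were in a list or were among the 15 highest or lowest of those with a UMI in at least 10% of the members (higher) or of the comparison group (lower), outside the 7 genes of the rule, against the OPC group or all other barcodes. The alternatives changed the limits on Olig, Pdgfra, neuronal genes and gene number, doublet removal, scaling, the CPM added, the filter and the thinning depth. Keeping the OPC group within the neuronal limits and leaving out barcodes with Mki67 or Top2a were added after seeing the data. The values of 1 gene examined are not reported here.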

Additional observations from a re-analysis of the deposited data

Results flagged for a closer look

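Data outside the comparisons were also examined for the members' pattern, among the 2044 barcodes with fewer than 1000 detected genes. Of these, 5 met every other limit (0.245%, 0.0795 to 0.570). They were singled out because 5 exceeds the 3 counts (0.147%) taken as the limit of a count of 0, with no background group to compare. They held a median of 1090 UMIs and no Egfr UMI, and a median of 738 genes. Their 5433 UMIs outside the mitochondrial genes were too few to tell their Egfr level from that of the members.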

How the results depend on the processing

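Of 106 alternative values, 91 stayed within the interval of the reported value (for counts of genes, within 1.5 times), 15 moved further and 0 reversed. The share of members was 1.23% with at least 4 Olig UMIs and 1.25% with no UMI of the neuronal limit genes. The Slc1a3 ratio to the OPC group was 5.40 with at least 4 Olig UMIs and 8.08 without barcodes holding Mki67 or Top2a, where the Egfr ratio was 5.26. With 1 Pdgfra UMI enough for the OPC group the Egfr ratio was 2.66, and with no neuronal UMI in members the Sox10 ratio was 0.0196. Adding 1 CPM in place of 10 gave 1083 genes higher and 1432 lower than in the OPC group, and 2441 higher and 2194 lower than in all other barcodes. Mki67 or Top2a was found in 48.6% of members without thinning and 26.3% at 1000 UMIs, and OPC barcodes without Pdgfra were 35.4% at 1000 UMIs and, as the choice of that group fixes, 0% without thinning. The cause of these shifts was not tested.

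No paired analysis was possible because a single library was used, and no replicate was left out. Depth limits genes near 3 UMIs in a group, such as Gpr17 in members, and shares of barcodes at low counts.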

Other observations

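A further list held the glyoxalase genes Glo1 and Hagh, Serpina3n, Nes and Mki67. Glo1, an enzyme that detoxifies methylglyoxal, was at 219 CPM in members, 83.4 CPM in the OPC group, 252 CPM in radial glia and astrocytes and 44.0 CPM in neurons. The ratio to the OPC group was 2.63 (2.13 to 3.26), and the interval of the ratio to radial glia and astrocytes spans 1 (0.752 to 1.01). Hagh, the next enzyme of that pathway, was at 52.0 against 33.4 CPM in OPCs and was not called. Serpina3n had 0 UMIs in members and in the OPC group. Of these 5 genes 2, Glo1 and Nes, were called higher than in OPCs and 0 lower, and the Nes call ended against OPCs within the neuronal limits (log2 ratio 0.92).

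Regional factors were mixed. Of 15 genes, 3 were called higher than in the OPC group and 1 lower. Emx2, a factor of dorsal progenitors, was at 73.3 against 20.0 CPM and Tfap2c, a factor of cortical radial glia, at 18.0 against 2.0 CPM, and Pax6 was the third. The Tfap2c call ended with at least 4 Olig UMIs (log2 ratio 0.91). Gsx1, a factor of ventral progenitors, had 0 UMIs in members and 16 in the OPC group, and was at least 5.34-fold lower when 3 UMIs were taken for all members. Its call ended without barcodes holding Mki67 or Top2a (log2 ratio -0.92). Emx1, also a dorsal factor, was at 10.0 CPM in members, 29.4 CPM in OPCs and 38.5 CPM in radial glia and astrocytes.

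Among 15 genes that respond to stress and dissociation, 3 were called higher than in OPCs and 0 lower, namely Fos, Fosb and Btg2. Fos, an immediate early factor, was at 695 against 169 CPM. Within the members it was at 98.9 CPM in those without Aldoc and 1264 CPM in those with at least 2 UMIs. The part of the dissociation in these values was not tested.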
